A study of Mus musculus with 2 samples.

Results

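The nuclear genes for mitochondrial ribosomal proteins were described in gastrocnemius muscle of newborn mice. They were chosen as protein-coding genes whose symbol begins with Mrpl or Mrps followed by a digit, which gave 78 of 55536 Ensembl genes in the tables. By symbol, 49 encoded proteins of the large subunit and 29 encoded proteins of the small subunit. No measured value entered this rule, although earlier results of these data were known when it was set.

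Mitochondria keep their own ribosome, the mitoribosome, which translates the few messenger RNAs of the mitochondrial genome into membrane-embedded subunits of the respiratory chain and of ATP synthase. Its ribosomal RNAs are transcribed from mitochondrial DNA, while every one of its proteins is encoded in the nucleus, made on cytoplasmic ribosomes and imported. Some of these proteins descend from bacterial ribosomal proteins, and others were added to the mitoribosome during its evolution and have no bacterial counterpart. Skeletal muscle depends on the respiratory chain, and defects in several of these genes cause mitochondrial disease that involves muscle, heart or brain.

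Symbols and structure do not match throughout. By the structural nomenclature, 46 of the genes encode homologs of bacterial ribosomal proteins (30 in the large and 16 in the small subunit) and 31 encode proteins specific to mitochondria. Mrps30 (mL65) and Mrps18a (mL66) carry small-subunit symbols but lie in the large subunit, and Mrps36 encodes a component of the alpha-ketoglutarate dehydrogenase complex and is not part of the mitoribosome. The genes were kept in the subunit of their symbol unless stated.

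The study deposited total RNA-seq of 2 libraries, biological replicates 1 and 2, each from the gastrocnemius of a female B6CASTF1/J mouse 4 days old, a first-generation hybrid whose parents were C57BL/6J and CAST/EiJ. The libraries were made from 300 ng of RNA after removal of ribosomal RNA, with ERCC spike-in RNAs added, and the animals are numbered 3 and 4 under a single donor record. No source says whether they were littermates, and reads were assigned to the mm10 reference without separating the parental alleles. All samples formed 1 group, so the values below are levels, and differences between the libraries were described without a test.

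The libraries held 30961087 and 36246031 expected counts. Muscle genes were abundant, with the skeletal actin Acta1 at 11663 and 13964 TPM (a level corrected for transcript length and scaled to a fixed total per library) and the muscle creatine kinase Ckm at 3911 and 4984 TPM. The adult beta-globin Hbb-bs differed between the libraries, at 612 and 112 TPM, and so did the liver marker albumin Alb, at 4.69 and 48.0 TPM. The part of red cell and liver RNA in the differences between libraries was not tested. In whole tissue, fewer cells of a type and less RNA per cell cannot be told apart.

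All 78 genes were detected in both libraries at 1 TPM or more. They took 46592 and 55851 expected counts, 0.150% (95% exact binomial interval 0.1491 to 0.1519) and 0.154% (0.1528 to 0.1554) of all counts. These intervals cover counting error only. The median gene had 546 counts in replicate 1 and 649.5 in replicate 2.

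The median level was 22.2 TPM in replicate 1 and 22.1 TPM in replicate 2. Among 12064 detected protein-coding genes this placed the typical member at percentile 76.1 and 75.8. The summed level was 2057 ± 75.9 TPM (SD, n = 2), which was 0.200% and 0.211% of all TPM. Of the 78 genes, 65 lay between 10 and 40 TPM, 7 lay above 50 TPM and 1 lay below 5 TPM. Of the 12064 detected protein-coding genes, 4478, 1190 and 3385 lay in these ranges. The ratio of the upper to the lower quartile was 2.45, against 4.78 over all detected protein-coding genes. It was lower still for cytoplasmic ribosomal protein genes (2.16) and complex I genes (1.67), so a narrow range was not particular to the members.

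The genes of the subunits had close typical levels. The large-subunit median was 22.4 and 22.0 TPM and the small-subunit median was 21.3 and 22.1 TPM. Their log2 ratio was 0.08 in replicate 1 and -0.01 in replicate 2, so its sign differed between the libraries. The large subunit held 66.0% and 66.1% of the members' TPM with 62.8% of the genes. Homologs of bacterial proteins had a median of 22.6 and 22.7 TPM and mitochondria-specific proteins one of 21.3 and 20.6 TPM. Adding the 5 mitoribosomal proteins with other symbols gave a large to small log2 ratio of -0.15, against 0.07 for the means of both libraries without them.

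**Figure D1:**
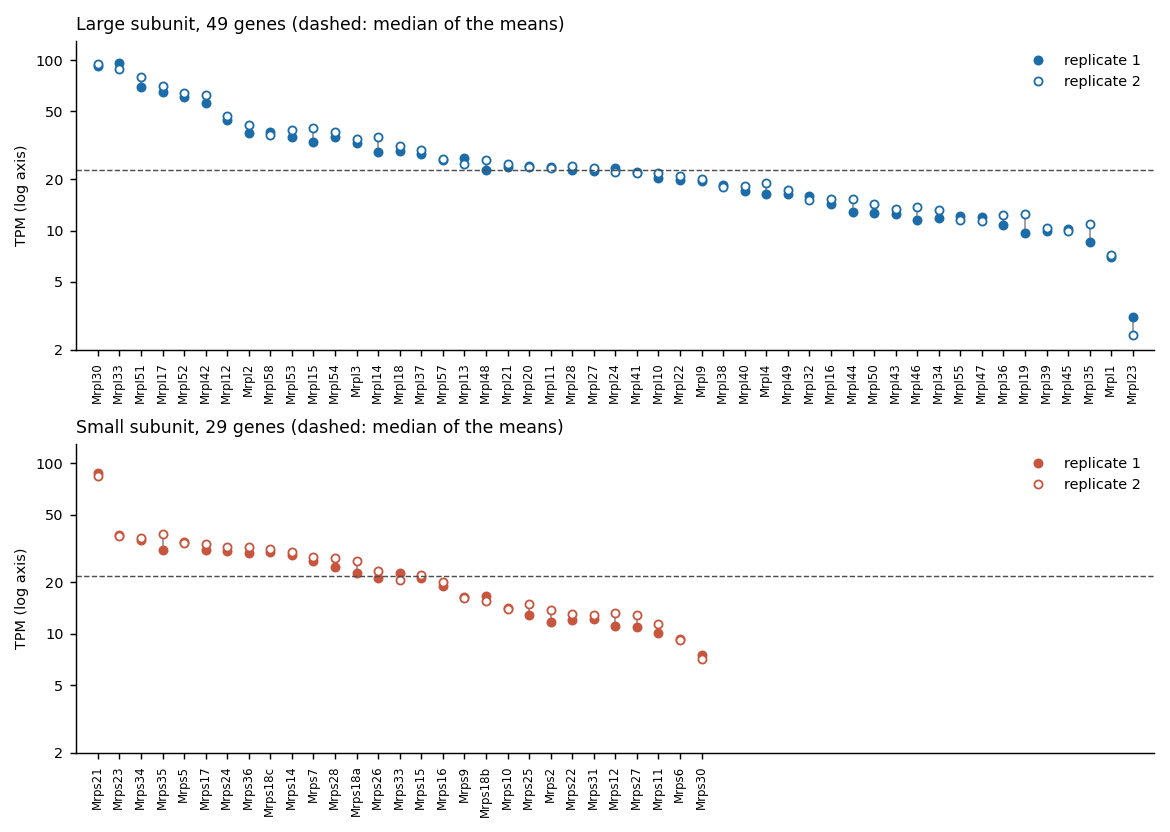
Level of each gene in TPM on a log axis, filled points for replicate 1 and open points for replicate 2, genes ordered by their mean within the large subunit (top) and the small subunit (bottom). The points of a gene lie close together, from 93.6 TPM for Mrpl30 down to 2.77 TPM for Mrpl23, and the dashed medians of the gene means lie at 22.7 and 21.7 TPM.

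At the top of the large subunit, Mrpl30 (uL30m, on chromosome 1) had 92.1 and 95.1 TPM, and Mrpl33 (bL33m, a very small protein) had 95.7 and 88.8 TPM. Mrpl51 (mL51) followed with 69.7 and 79.4 TPM, ahead of Mrpl17 (bL17m) with 65.0 and 70.4 TPM. Mrpl52 (mL52) had 60.8 and 64.2 TPM. The order of Mrpl30 and Mrpl33 differed between the libraries, and the means of these leading genes, 93.6 ± 2.14 and 92.2 ± 4.89 TPM (SD, n = 2), were closer than their spread.

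In the small subunit a single gene stood apart. Mrps21, which encodes the small protein bS21m, had 88.0 and 84.7 TPM. The gene ranked after it, Mrps23 (mS23), had 37.99 and 37.67 TPM, and it was followed by Mrps34 (mS34) with 35.5 and 36.5 TPM. Mrps35 (mS35) had 31.0 and 38.5 TPM, and Mrps5 (uS5m), whose bacterial relative lies near the messenger RNA entry channel, had 34.6 and 34.0 TPM. From Mrps23 to Mrps5 the libraries did not give one order.

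The lowest member was Mrpl23 (uL23m), a protein of the polypeptide exit site, with 3.11 and 2.43 TPM. Mrpl1 (uL1m), the protein of the L1 stalk that lines the path of outgoing transfer RNA, had 7.12 ± 0.163 TPM (SD, n = 2). Mrpl35 (bL35m) had 8.60 and 10.98 TPM, while Mrpl45 (mL45), which contacts the inner membrane, had 10.18 and 10.01 TPM. Mrpl39 (mL39) had 9.90 and 10.31 TPM, so that the order of the last 3 genes named was not the same in both libraries.

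Among the lowest small-subunit genes, Mrps30 had 7.52 and 7.08 TPM, although its protein (mL65) belongs to the large subunit. Mrps6 (bS6m) had 9.30 and 9.17 TPM and Mrps11 (uS11m) had 10.16 and 11.47 TPM. The ranges of these 3 genes did not overlap. Mrps27 (mS27) had 11.9 ± 1.32 TPM (SD, n = 2) and Mrps12 (uS12m), a protein of the decoding centre, had 11.17 and 13.29 TPM.

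Parts of the ribosome that work together were not at one level. The stalk recruits translation factors, and its protein Mrpl12 (bL12m), which in bacteria is present in several copies per ribosome, had 44.7 and 47.0 TPM. Its base proteins Mrpl10 (uL10m) and Mrpl11 (uL11m) had 20.3 and 21.8 TPM and 23.7 and 23.3 TPM. The Mrpl12 level lay above both in each library.

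Around the exit of the polypeptide tunnel, the 7 genes listed ran from Mrpl23 to Mrpl17, at 67.7 ± 3.78 TPM (SD, n = 2). Mrpl22 (uL22m) had 20.4 ± 0.693 TPM and Mrpl24 (uL24m) had 22.7 ± 0.976 TPM. Mrpl39, Mrpl45 and Mrpl47 (uL29m) formed a lower set, with means of 10.1, 10.1 and 11.7 TPM. The place of Mrpl23 as the lowest rests on how reads were divided with its pseudogene copy Mrpl23-ps1, since the gene and the copy summed to 53.0 and 54.7 TPM.

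The central protuberance is the top of the large subunit, where a mitochondrial transfer RNA has replaced the bacterial 5S ribosomal RNA. Its 7 listed genes ran from 11.8 ± 0.424 TPM for Mrpl55 (bL31m) to 30.5 ± 1.37 TPM for Mrpl18 (uL18m), the relative of the bacterial protein that binds 5S RNA. The 3 mammalian relatives of bacterial protein S18 go to different places. Mrps18c (bS18m), which holds the bacterial position in the small subunit, had 30.1 and 31.3 TPM. Mrps18a, in the large subunit, had 22.8 and 26.7 TPM, and Mrps18b (mS40), elsewhere in the small subunit, had 16.7 and 15.6 TPM. Their order was the same in both libraries.

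Mrps36 had 29.7 and 32.3 TPM, and Mrpl58 (mL62), a peptidyl-tRNA hydrolase that rescues stalled ribosomes and is also built into the large subunit, had 37.9 and 36.3 TPM. Both lay above the median of the genes.

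The level of Mrpl23 differed with how reads were divided between the gene and a copy of it. Mrpl23 lies at mm10 chr7:142532686-142540747 on the plus strand. Of the genes at 1 TPM or more, the nearest before it was the fast troponin T gene Tnnt3 (3431 and 3813 TPM), 16677 bases away, and the nearest after it was the long non-coding RNA H19 (6979 and 8029.5 TPM), 34782 bases away. A processed pseudogene, Mrpl23-ps1, lies at mm10 chr2:74591330-74591909 on the minus strand. It matched all 438 coding bases of the transcript with 0 differences, and 540 of the 692 bases of the whole transcript. The first 60 coding bases are shown because no base in them tells the gene from its copy.
Mrpl23: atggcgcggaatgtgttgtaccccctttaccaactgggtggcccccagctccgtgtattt
Mrpl23-ps1: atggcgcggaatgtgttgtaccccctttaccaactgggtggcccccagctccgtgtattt

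Mrpl23 was given 112 and 101 expected counts, the fewest of all members. The pseudogene was given 672 and 799 expected counts, 49.9 and 52.3 TPM, which was 85.7% and 88.8% of the pair. In the second deposited quantification, made per transcript, the pseudogene had 0 TPM and Mrpl23 had a mean of 109.8 TPM, rank 6 of 78 instead of 78. The bounds the authors deposited for the uncertainty of read assignment ran from 2.84 to 10.2 TPM in replicate 1 and from 2.46 to 10.2 TPM in replicate 2. Gene and copy together made 53.0 and 54.7 TPM, which would rank 8 among the members. The level of Mrpl23 in these tables is therefore uncertain over this whole range, and which of the 2 loci gave the reads was not tested.

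A second member shared reads with a copy that differed at 1 of 318 coding bases. Mrps33 (mS33), at mm10 chr6:39801804-39810988, had 22.7 and 20.6 TPM, and its pseudogene Gm5776, at mm10 chr7:54412158-54412478, took 13.3% and 10.1% of their joint counts. The sum was 32.3 and 28.0 TPM. In the second quantification Gm5776 had 0 counts in both libraries and Mrps33 had 385 and 448. Coding bases 141 to 200 are shown with the differing base in capitals.
Mrps33: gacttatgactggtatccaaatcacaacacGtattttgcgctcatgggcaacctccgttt
Gm5776: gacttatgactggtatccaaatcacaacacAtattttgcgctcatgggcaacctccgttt

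In all, 31 of the 78 genes had at least 1 pseudogene copy elsewhere in the genome, with 85% identity or more over at least 100 bases of coding sequence. Only members were searched, so neither this share nor that of the overlaps below was worked out over all detected genes. Of the 58 copies, 19 had any count, and these 2 took more than 10% of the joint counts in both libraries. Mrpl48-ps took 8.44% and 10.3% beside Mrpl48, and the copy AC154457.3 took 7.39% and 11.8% beside Mrps10. In the second quantification Mrpl48-ps had 0 counts in both libraries and AC154457.3 had 28.9 and 44.8. At their own locus, 8 members overlapped a protein-coding gene within the coding sequence, such as Mrpl18, which is also among the 31, with the chaperonin gene Tcp1 (115 and 112 TPM) and Mrps34 with Mapk8ip3 (23.9 and 19.3 TPM). Mrpl53 and Mrps6 share the strand of their partners. Gm42688, the partner of Mrpl53, matched all 354 of its coding bases and took 17.0% and 11.5% of their joint counts. In the second quantification Gm42688 had 362 and 409 counts beside 414 and 498 for Mrpl53. For partners on the opposite strand, the sources do not say whether strand was used in counting. Mrpl18 had whole expected counts (882 and 1029), and so did Mrpl24, Mrpl43, Mrpl9 and Mrps30. Twnk (448 and 594), on the opposite strand from Mrpl43 (436 and 532), had whole counts too. Mrps34 did not (836.62 and 972.89). The levels of Mrpl48, Mrps10, Mrpl53, Mrps6 and Mrps34, which had fractional counts, are uncertain too. Whether partners on the opposite strand shared reads with the members of whole counts was not tested.

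The members were next set beside the other genes of mitochondrial translation. The 5 proteins of the mitoribosome with other symbols were all detected, with a median of 28.9 and 29.3 TPM. Gadd45gip1 (12.9 ± 1.41 TPM, SD, n = 2) and Ptcd3 (28.0 ± 1.33 TPM) were the lowest of them by mean, and Aurkaip1 (32.0 ± 1.15 TPM) and Chchd1 (32.2 ± 1.27 TPM) the highest. They lay in the range of the members.

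Genes that build or modify the mitoribosome were lower. All 25 were detected, with a median of 4.92 and 5.79 TPM, 0.222 and 0.262 times the median of the members. Their range ran from the endoribonuclease Ybey (1.66 TPM) and the rRNA methyltransferase Mrm1 (2.66 TPM) to the assembly factor Malsu1 (16.3 TPM) and the RNA helicase Dhx30 (24.1 TPM), given as means of both libraries. The 17 aminoacyl-tRNA synthetases of mitochondria had a median of 6.48 and 6.60 TPM, from Mars2 (1.70 TPM) and Pars2 (1.94 TPM) to Lars2 (16.9 TPM) and Iars2 (18.5 TPM).

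The 15 translation factors and messenger RNA partners spread over the widest range of these lists, with a median of 9.29 and 9.81 TPM. The release factor Mtrf1 (1.97 TPM) and the formyltransferase Mtfmt (3.56 TPM) were lowest. The elongation factor Tufm had 42.4 ± 9.40 TPM (SD, n = 2), and the messenger RNA stabilising protein Slirp had a mean of 62.2 TPM. The ribosomal RNAs mt-Rnr1 (21280 and 20259 TPM) and mt-Rnr2 (36220 and 35694 TPM) were what remained after removal of ribosomal RNA, so they do not measure the amount of mitoribosome.

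Genes of the cytoplasmic ribosome and of complex I, the first enzyme of the respiratory chain, had far more abundant RNA. The 77 cytoplasmic ribosomal protein genes had a median of 378 and 391 TPM, 17.0 and 17.7 times that of the mitochondrial ones, and their sums differed 14.5-fold and 14.4-fold. The 37 complex I genes had a median of 109.8 and 120.2 TPM, 4.95 and 5.45 times that of the members. They were chosen by symbol (Nduf, then a, b, c, s or v and a digit), and their place in the complex was not checked. Their highest and lowest genes by mean were Ndufa4 (318 TPM) and Ndufa4l2 (8.99 TPM). The quartile ratio of the members (2.45) lay above that of the cytoplasmic ribosomal proteins (2.16) and of complex I (1.67).

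**Figure D2:**
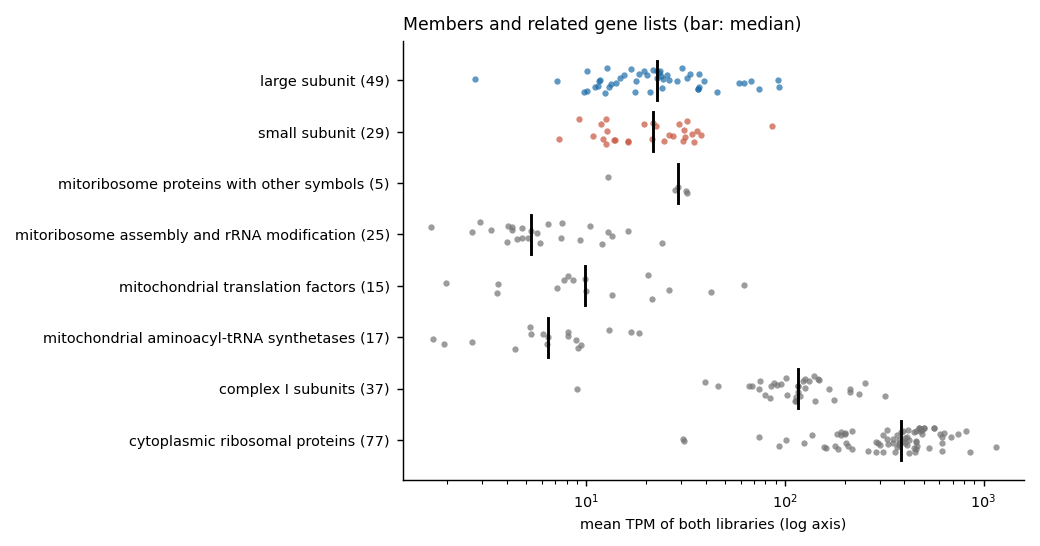
Mean TPM of both libraries on a log axis for each gene of the 2 subunits and of 6 related lists, with the number of genes in brackets and a vertical bar at each median. The subunits share one range, assembly factors and synthetases lie lower, and complex I and the cytoplasmic ribosomal proteins lie higher.

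Shorter genes had higher levels. Across the 78 genes, Spearman's rho between mean TPM and the deposited gene length was -0.60 (-0.63 in the large and -0.52 in the small subunit), against -0.15 across the 12064 detected protein-coding genes. Of the 10 highest genes, 8 were shorter than the median member, and 7 of the 10 lowest were longer. With expected counts, which are not corrected for length, rho was 0.18. These are descriptions across genes of the same libraries, and TPM contains the length as a divisor. The median length was 958 bases, against 2388 over all detected protein-coding genes. The cytoplasmic ribosomal protein genes and complex I genes were also short, with medians of 598 and 677 bases. Their rho between mean TPM and length was -0.40 and -0.28.

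The relation was seen in both classes of protein. Among the mitochondria-specific proteins rho was -0.81 (31 genes) and among the homologs of bacterial proteins -0.45 (46 genes). Genes away from the trend, chosen after their values were seen, were Mrpl12, with 1298 bases and 45.8 TPM, and, below it, Mrpl34 (bL34m), with 607 bases and 12.5 TPM. The difference between the classes was not tested.

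**Figure D3:**
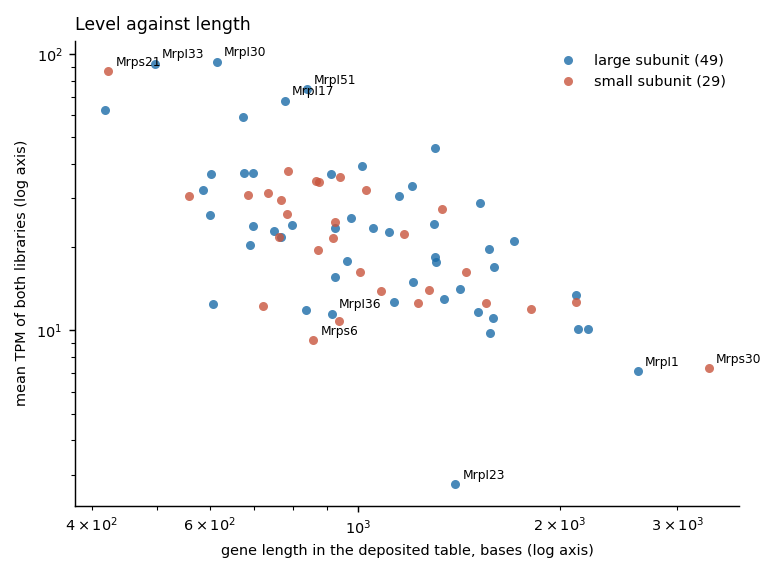
Mean TPM of both libraries against the gene length in the deposited table, both on log axes, with 1 point per gene and colour for the subunit. Levels fall with length in both subunits (rho -0.60 over all 78 genes), and Mrpl23 lies lowest at 2.77 TPM.

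The gene levels hid differences in which transcripts were counted. The leading transcript, the one with the highest mean TPM of its gene, held a median of 86.6% of the gene's TPM, against 65.6% over all detected protein-coding genes. It held under 50% in 9 of 78 genes (11.5%, against 29.2% over all), namely Mrpl24, Mrpl23, Mrpl48, Mrps5, Mrps23, Mrps10, Mrpl55, Mrpl19 and Mrps11. Mrpl24 was the most divided, with 22.3% and 30.3% for its leading transcript. The leading transcript was the same in both libraries for 75 of the 78 genes, and the same in the second quantification for 58. Over all detected protein-coding genes these were 10761 and 9305 of 12064.

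In 16 genes (20.5%, against 7.01% over all) the leading transcript was of an annotated class other than protein-coding. In 18 genes (23.1%, against 9.33%) such transcripts made over 50% of the TPM. They are called non-coding here, which means only that their class is not protein-coding. In Mrpl3, Mrpl13, Mrpl32, Mrpl35 and Mrps14 the leading transcript was a target of nonsense-mediated decay. These classes are retained introns, processed transcripts without an open reading frame, and transcripts annotated as targets of nonsense-mediated decay, the pathway that degrades messages with an early stop codon. The median non-coding share was 6.87%, against 11.4% over all, so the excess lay in some genes and not in the typical one. TPM is corrected for length, so these are not shares of reads. In Mrpl19 the protein-coding transcript, of 5000 bases, took 334 and 422 of the gene's 423 and 562 expected counts. In Mrpl51 the protein-coding transcript took 148 and 214 of 1441 and 1862. The number of genes that are mostly non-coding by counts was not worked out.

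The genes concerned included abundant ones. In Mrpl51, at rank 4 of the 78 by level, non-coding transcripts made 97.7% of the TPM in replicate 1 and the protein-coding one had 1.59 and 2.03 TPM. Retained introns made 97.0% in Mrpl57 and 96.3% in Mrps26, and a processed transcript made 95.4% in Mrps16, each in replicate 1. Transcripts annotated for nonsense-mediated decay made 94.2% in Mrps14, 89.0% in Mrpl32 and 75.9% in Mrpl3. In the second quantification the non-coding share was 97.4% in Mrpl51, 96.4% in Mrps26 and 98.7% in Mrps16. It was 12.0% in Mrps14, whose leading transcript there was protein-coding.

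Counting protein-coding transcripts alone, the median was 16.9 TPM for the large subunit and 13.2 TPM for the small subunit, against 22.7 and 21.7 TPM for whole genes. The log2 ratio of the medians was then 0.36. The summed level was 1524 instead of 2057 TPM. Many of these transcripts differ over short stretches, and the share that short reads can place on one of them was not tested.

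**Figure D4:**
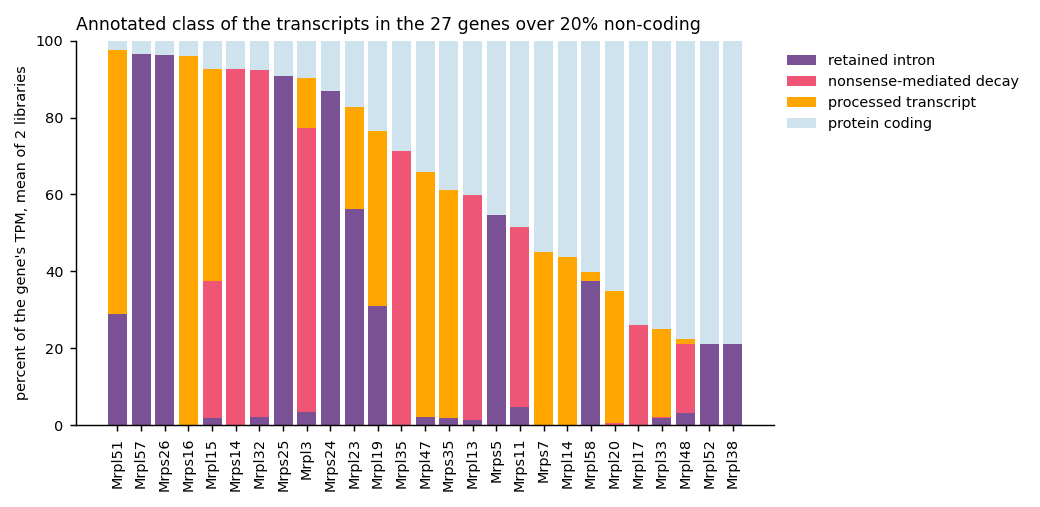
Share of the gene's TPM, in percent and as the mean of both libraries, by annotated transcript class for the 27 genes in which non-coding transcripts held over 20%. These were 34.6% of the members, against 36.1% of all detected protein-coding genes, so at this cut the members showed no excess. Retained introns fill most of Mrpl57 and Mrps26, decay targets most of Mrps14 and Mrpl32, and processed transcripts most of Mrps16.

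The second quantification gave higher values for most genes. Its median was 41.9 TPM for the large subunit and 41.0 TPM for the small subunit, and 77 of 78 genes were higher there. The median log2 difference was 0.88 for the members and 0.81 for all detected protein-coding genes, so most of it was shared. After that shift, 2 genes differed by more than 2-fold, Mrpl23 and Mrpl27 (bL27m, 22.9 TPM in the gene table and 87.8 TPM in the second). Mrpl17 was the exception to the direction, with 67.7 and 66.0 TPM. Its second quantification placed 89.8% on the decay target Mrpl17-203, and the gene table led with the protein-coding Mrpl17-204. Spearman's rho between the quantifications was 0.87 across the 78 genes, against 0.97 across all detected protein-coding genes. How many of all detected genes were higher in the second quantification, or over 2-fold apart after the shift, was not counted.

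The replicate libraries gave nearly the same levels. Spearman's rho between them was 0.988 across the 78 genes, and also 0.988 across all detected protein-coding genes. After TMM scaling (trimmed mean of M values), 0 of 78 genes had a log2 ratio beyond 0.32 in either direction, against 10.5% of the 12257 genes that averaged 100 counts or more. By more than 2-fold, 0 of 78 differed, against 0.718% of all genes. The cytoplasmic ribosomal protein genes, from -0.18 to 0.19, and the complex I genes, from -0.04 to 0.25, stayed within 0.32 as well. The SD of the log2 ratios over genes was 0.11 for the members, 0.08 for the cytoplasmic ribosomal proteins and 0.07 for complex I. With 1 library on each side there is no test of these differences.

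The members leaned to replicate 2 by a small amount. The median log2 ratio of replicate 2 over replicate 1 was 0.09 in both subunits, against 0.02 over all genes, and 63 of 78 (80.8%) were higher in replicate 2, against 55.3% of all genes. Cytoplasmic ribosomal proteins had a median of 0.07 (63 of 77 higher) and complex I genes one of 0.12 (36 of 37 higher). When scaled to the ERCC spike-ins the median of the members was -0.05 and 21 of 78 were higher, since that scaling moved the median of all genes to -0.12. Relative to the median of all genes the members were 0.06 higher under both scalings.

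The ends of this range were modest. Mrps25 (mS25) had 343 and 478 counts, a log2 ratio of 0.30 with a 95% counting interval from 0.10 to 0.51. Mrpl14 (uL14m) had 399 and 547 counts (0.28) and Mrpl44 (mL44), which has the fold of ribonuclease III, had 474 and 645 counts (0.27). Mrpl46 (mL46) stood at 0.25 and Mrps27 at 0.24. At the other end, Mrpl23 stood at the threshold itself, at -0.32 with an interval from -0.73 to 0.07 (-0.37 when scaled by library size), and Mrps10 (uS10m), with 495 and 489 counts, stood at -0.19. Mrpl13, Mrpl58 and Mrpl32 followed at -0.12, -0.11 and -0.10.

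**Figure D5:**
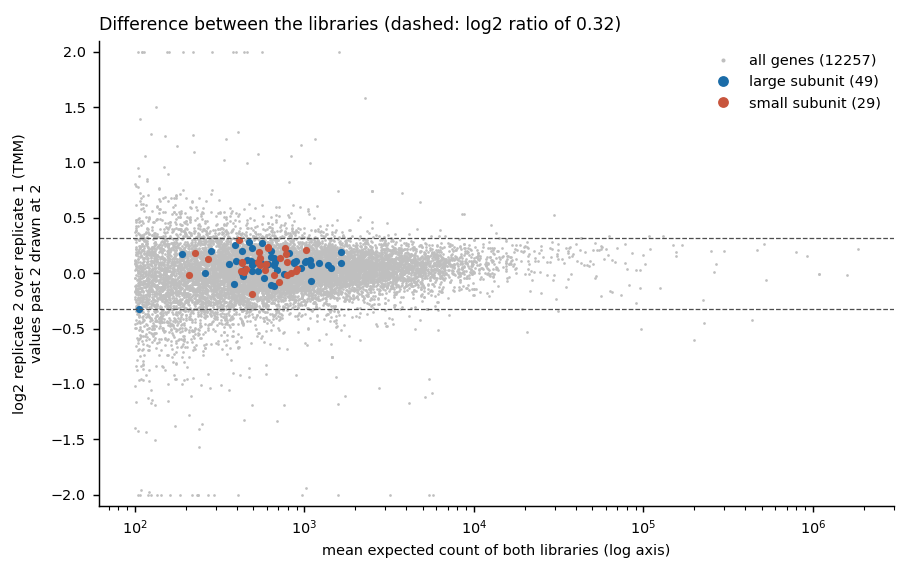
Log2 ratio of replicate 2 over replicate 1 after TMM scaling against the mean expected count on a log axis, with all 12257 genes in grey and the members in colour. The 78 members lie between -0.32 and 0.30, and the dashed lines mark 0.32 in either direction.

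The genes were spread over 17 chromosomes, with 11 on chromosome 11 and 8 on chromosome 17. Only Mrpl46 and Mrps11, on chromosome 7, lay within 100000 bases of each other. They start on opposite strands and overlap by 412 bases, and their levels were 12.7 ± 1.59 and 10.8 ± 0.926 TPM (SD, n = 2).

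Many members start next to another gene that runs the other way. A protein-coding gene on the opposite strand began within 1000 bases upstream of 18 members (23.1%), against 10.3% of the detected protein-coding genes. In 17 of the 18 the distance was at most 300 bases. Counting starts that overlap by up to 1000 bases as well, 33 members (42.3%) had such a neighbour, against 16.2% of all.

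The closest pair was Mrpl54 with Apba3, an adaptor protein gene, 26 bases apart at 36.7 and 18.1 TPM as means of both libraries. Mrps18c and the helicase gene Helq were 29 bases apart at 30.7 and 3.38 TPM, and Mrps34 and the endonuclease gene Eme2 were 29 bases apart at 36.0 and 11.6 TPM. Mrps18b and the phosphatase regulator Ppp1r10 lay 45 bases apart at 16.2 and 16.8 TPM. Mrpl57 and the kinetochore gene Ska3 lay 49 bases apart at 26.2 and 2.11 TPM. The member was the higher of the pair in 14 of 18 cases, and 16 of the partners were detected.

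The levels within pairs did not follow each other, with Spearman's rho of -0.06 across the 18 pairs. Mrpl49 (mL49) had 16.9 TPM beside Fau, a cytoplasmic ribosomal protein gene, at 386 TPM. Mrpl30, the highest member, had 93.6 TPM beside Mitd1 at 2.74 TPM. Some partners also serve mitochondria. Mrps12 lay 172 bases from Sars2, the mitochondrial seryl-tRNA synthetase gene (12.2 and 6.36 TPM), and among the overlapping starts Mrpl36 lay beside the complex I gene Ndufs6 (11.5 and 91.6 TPM) and Mrpl47 beside Ndufb5 (11.7 and 114 TPM).

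RefSeq promoter windows of mm10, from 250 bases before to 50 bases after the start, were found for 69 of the members. Of these, 79.7% had a start within 100 bases of that of the leading transcript, as did 79.4% of all windows. NRF1, YY1 and GABPA are factors known for nuclear genes of mitochondrial proteins. The NRF1 letters GCGCANGCG were found on either strand in 16 of 69 windows (23.2%), against 14.4% of 9441 windows of detected protein-coding genes. The ETS letters of GABPA, CCGGAAGT, were found in 11 (15.9%, against 8.67%), and the YY1 letters AAGATGGCG in 8 (11.6%, against 3.44%). One or more of the 3 was present in 33 windows (47.8%, against 24.3%), and no matches of different motifs overlapped.

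Other motifs showed smaller differences or were rarer than in all windows. The SP1 letters GGGCGG were in 49.3% of the members' windows, against 67.1% of all, the CCAAT box in 39.1%, against 38.7%, and the TATAAA letters in 5.80%, against 6.72%. The letters TCAAGGTCA of the estrogen-related receptors were in 0 of 69, against 0.233%. The median level was 20.7 TPM with an NRF1 match and 21.8 TPM without one, 18.3 against 21.7 TPM for YY1 and 30.5 against 20.7 TPM for ETS. A match of letters is a description of the window and not evidence of binding.

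The 8 windows with a YY1 match are shown with the match in capitals and up to 10 bases on each side, because the motif can overlap the place where translation starts. In 6 of them the match was on the strand of the gene and began 11 to 36 bases after the start of transcription. The ATG inside the match was an annotated start codon in 4 of the 8 (Mrpl35, Mrps18a, Mrps24 and Mrps27), against 128 of the 325 windows with a match over all genes. Among matches on the strand of the gene and after the start, these were 4 of 6 for the members and 128 of 184 for all genes.
Mrpl35, chr6:71823743-71823771, minus strand: ggcaggctgcAAGATGGCGgcttccatct
Mrpl36, chr13:73330968-73330996, plus strand: cgtgaccttaCGCCATCTTtcttcctggc
Mrpl37, chr4:107066822-107066850, minus strand: tgcacgggcaAAGATGGCGgcgtccaggt
Mrpl42, chr10:95501904-95501932, minus strand: agattgaagcAAGATGGCGagcgcgcggt
Mrps11, chr7:78783013-78783041, plus strand: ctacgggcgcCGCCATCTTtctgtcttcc
Mrps18a, chr17:46111005-46111033, plus strand: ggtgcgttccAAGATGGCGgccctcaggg
Mrps24, chr11:5707652-5707675, minus strand: gcgccggcccAAGATGGCGtggtc
Mrps27, chr13:99344790-99344818, plus strand: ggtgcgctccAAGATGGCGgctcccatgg

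These 8 genes did not share a level. Mrpl42 had 56.3 and 62.2 TPM, Mrps24 had 30.5 and 32.4 TPM, and Mrpl35 had 8.60 and 10.98 TPM. The highest member, Mrpl30, had 2 NRF1 matches in opposite orientation, 102 to 74 bases before its RefSeq start. The stretch of 29 bases that holds both lies inside the first exon of its divergent neighbour Mitd1, and the leading transcript of Mrpl30 began 3458 bases from that start.
Mrpl30, chr1:37890375-37890403, plus strand: GCGCACGCGtgacgccgctgCGCCTGCGC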

How the data were processed

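Total RNA was measured in 2 libraries of 1 group. Expected counts and TPM per gene and per transcript, with each transcript's percent of its gene's TPM, were deposited by the authors against mm10. A second transcript quantification, with estimated counts and TPM, was summed per gene. Neither aligner nor quantifier is named in the sources. Per the file headers, TPM includes spike-ins and tRNA entries, and gene lengths are weighted by transcript. Symbols and biotypes came from the second tables. Positions, transcript classes and starts came from GENCODE M21, and promoters from RefSeq (GRCm38.p6). Lengths are those of replicate 1 unless averaged.

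Genes at 1 TPM or more in both libraries counted as detected. Ratios between libraries used expected counts rounded to whole numbers, TMM factors from edgeR 4.0.16 (R 4.3.3) and a prior count of 2. On simulated counts the ratio step gave the folds set. Shares of transcripts were recomputed from TPM. Copies were found with blastn 2.17.0. No test was run, because there was no contrast between groups. Per the labels the replicates are separate animals, and spreads given are those between 2 animals. All members and lists were chosen with earlier results of these data known. Every member could be named. Those given in full were the 5 highest and lowest of each subunit, the extremes of the ratios, the genes of the structural groups, the genes with a leading transcript under 50%, and the closest divergent pairs. From each related list of mitochondrial translation the 2 highest and 2 lowest were named. Alternatives are in the closing section.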

Additional observations from a re-analysis of the deposited data

How the results depend on the processing

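Detection of all 78 members held at 0.5 TPM, in the second quantification and in each library alone, and 77 were above 5 TPM. The large and small medians were 41.9 and 41.0 TPM in the second quantification, 25.0 and 23.8 TPM rescaled without spike-ins, tRNA entries and mitochondrial genes, 22.2 and 24.7 TPM with 5 proteins of other symbols added, and, as alternatives chosen after seeing the data, 16.9 and 13.2 TPM for protein-coding transcripts only. Summing Mrps33 with its copy gave a small median of 22.4 TPM. The summed level was 4038, 2265 and 1524 TPM in the second quantification, rescaled and for protein-coding transcripts. The log2 ratio of the medians was 0.36 for protein-coding transcripts and -0.15 with the 5 proteins added. Leaving out 1 replicate gave -0.01 to 0.08 for it, 22.0 to 22.4 TPM for the large median and 2.41 to 2.43 for the quartile ratio. That ratio was 2.51 in the second quantification, 2.49 with subunits from structures, 2.35 on log2(TPM + 1), 2.39 with copies summed and 2.25 for protein-coding transcripts. The median log2 ratio between libraries was -0.05 with ERCC scaling. Genes with a log2 ratio beyond 0.32 were 1 by library size (Mrpl23), 1 with a prior count of 0.5 (Mrpl23), 2 with ERCC scaling (Mrps10 and Mrpl23) and 2 in the second quantification (Mrpl14 and Mrpl46). Counting overlapping starts gave 33 divergent neighbours. The cause of these differences was not tested. Of 68 alternatives, 39 left the value within the spread between replicates or a count within 1.5-fold. For the median log2 ratio between libraries, the spread used was the SD over the 78 members, 0.11. No paired analysis was possible because there was 1 group of samples.

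With n = 2 the SD is imprecise. Expected counts divide reads between like sequences by a model, so the levels of Mrpl23, Mrps33 and Mrpl53 are uncertain.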
